A study of Homo sapiens with 45 samples.

Results

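Small nucleolar RNA host genes (SNHGs) are genes whose introns carry small nucleolar RNAs (snoRNAs). The members described here are the genes whose symbol is SNHG followed by a number only, with GAS5, EPB41L4A-AS1 and ZFAS1, which host snoRNAs under other names. The rule found 31 members among the 60675 genes of the count tables, and 27 of them were among the 21242 genes with enough counts to test. SNHG14 had 8 counts over all libraries, SNHG22 had 42, and SNHG18 and SNHG27 had 0, so these 4 were not tested.

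The libraries came from HEK293F, a human embryonic kidney cell line adapted to suspension growth, cultured in Expi293 medium and used to make recombinant adeno-associated virus (rAAV). The labels give 5 lines: AC1.112, AC1.203 and AC1.230 (wild type, each clonal), AC1P (wild type, polyclonal) and 293F (wild type). Each line was sampled at 0, 24 and 72 h of a triple transfection with pHelper, RepCap9 and an inverted-terminal-repeat reporter plasmid, delivered with TransIT-VirusGEN, with 3 libraries per line and time and 45 in all. Whether the 3 libraries of a group are separate cultures is not in the labels, so the p-values speak only for the spread among these libraries. The labels do not rank the lines by virus yield. No mock-transfected library was analysed here, so in any difference between times the plasmids, the medium change, the reagent and the hours of culture cannot be told apart.

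Total counts per library ranged from 24727028 to 59837051 (median 39247411), and libraries of the same group correlated across genes at r = 0.984 to 0.991 on the log scale. All 8 listed HEK293 markers were tested, among them the neurofilament gene NEFM, which at 0 h lay between 3477 and 4814 CPM (library-size normalised counts with TMM composition factors; median 4076) in the 12 AC1 libraries, against 1.34 to 2.03 CPM (median 1.74) in the 3 libraries of 293F. 293F therefore stands apart from the other 4 lines in a defining marker. The composition factors were 0.894 to 1.06 in the AC1 libraries, against 1.05 to 1.22 in 293F. The part of either in the results below was not tested. Other cell types' markers were low: over all libraries the summed level, here per library total, of 5 fibroblast genes was 5.69 to 49.4 CPM (3 tested, 0 of the 5 at 0 throughout), that of 5 haematopoietic genes 0.780 to 5.28 CPM (4 tested), and that of 4 endothelial genes 0.405 to 2.45 CPM (3 tested). The fibroblast sum at 0 h was 8.02 to 30.9 CPM in the AC1 lines, against 40.8 to 42.4 CPM in 293F.

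As background, an SNHG transcript is spliced, its introns are debranched and trimmed, and the snoRNA inside each intron is released and bound by its partner proteins. C/D box snoRNAs guide 2′-O-methylation of ribosomal RNA through the methyltransferase fibrillarin, and H/ACA box snoRNAs guide pseudouridylation through dyskerin. The spliced exons that remain often reach the cytoplasm, where many are translated for a short stretch and degraded by nonsense-mediated decay. Many snoRNA host genes, like ribosomal protein genes, start transcription at a C within a pyrimidine run, a 5′ terminal oligopyrimidine (TOP) start that places their RNA under growth-dependent translation. A poly(A)-selected library reads the spliced host RNA and not the mature snoRNA.

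The start sites are shown because they are what a TOP start is read from. RefSeq promoter entries on GRCh38.p14 matched 27 of the 31 members. A start was counted as TOP-like when the first transcribed base was C and at least 4 further C or T letters followed on the transcript strand, a definition chosen with these sequences in view. It held for 7 of the 27 matched members (25.9%), against 1429 of 35116 promoters in the whole table (4.07%), and for 16 of 29 matched protein-coding snoRNA hosts. Each window below runs from 40 bases before the annotated start to 30 bases into the transcript, 5′ to 3′ on the gene's own strand, with the TOP-like run from the first transcribed base in capitals. The 6 TOP-like members that were tested come first, followed by 4 abundant or strongly changing members whose annotated start was not TOP-like.
SNHG12, chr1:28581844-28581913, minus strand: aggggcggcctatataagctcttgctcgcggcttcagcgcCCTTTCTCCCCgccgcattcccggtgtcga
SNHG4, chr5:139274061-139274130, plus strand: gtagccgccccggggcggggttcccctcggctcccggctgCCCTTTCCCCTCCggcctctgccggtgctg
SNHG32, chr6:31834876-31834945, plus strand: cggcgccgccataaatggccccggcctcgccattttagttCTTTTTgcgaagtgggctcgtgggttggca
SNHG5, chr6:85678704-85678773, minus strand: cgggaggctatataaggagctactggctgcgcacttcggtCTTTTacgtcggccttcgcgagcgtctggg
SNHG19, chr16:2155329-2155398, minus strand: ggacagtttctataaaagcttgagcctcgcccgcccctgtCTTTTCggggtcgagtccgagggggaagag
ZFAS1, chr20:49278602-49278671, plus strand: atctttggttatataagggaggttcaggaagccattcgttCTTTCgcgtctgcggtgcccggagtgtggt
SNHG29, chr17:16438947-16439016, plus strand: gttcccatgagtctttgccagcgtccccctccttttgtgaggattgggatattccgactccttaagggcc
SNHG16, chr17:76557724-76557793, plus strand: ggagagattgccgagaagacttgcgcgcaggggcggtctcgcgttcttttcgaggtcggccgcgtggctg
SNHG7, chr9:136728155-136728224, minus strand: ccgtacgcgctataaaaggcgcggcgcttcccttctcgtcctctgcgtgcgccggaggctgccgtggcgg
GAS5, chr1:173869016-173869085, minus strand: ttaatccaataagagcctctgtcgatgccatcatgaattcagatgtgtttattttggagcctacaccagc
RefSeq gives 1 start per gene in this table, so a window without a run says only that these letters are not at that position. The GAS5 window lies wholly upstream of the GENCODE 29 gene, whose 5′ end is at 173868882. It therefore does not show the start of GAS5 as annotated there, and whether that start is TOP-like was not examined.

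CPM were divided by exonic length only to compare genes with each other. Averaged over the 15 groups, SNHG29 had the highest level per length, 229 CPM per kb. It is a host of SNORD49 and SNORD65 (ENSG00000175061, chr17:16438822-16478678, plus strand, GRCh38, also known as LRRC75A-AS1). GAS5, named for its accumulation in growth-arrested cells and host of 11 snoRNAs in RefSeq (ENSG00000234741, chr1:173863900-173868882, minus strand), followed at 73.4 CPM per kb. SNHG32, host of SNORD48 and SNORD52 (ENSG00000204387, chr6:31834608-31839766, plus strand), had 50.7 CPM per kb and is annotated as protein-coding in GENCODE 29. SNHG5, SNHG6, SNHG16, SNHG8 and SNHG1 lay between 28.6 and 45.8 CPM per kb. At the other end, SNHG21 had 0.645, SNHG26 0.595, SNHG31 0.270 and SNHG28 0.0750 CPM per kb. Together the members took 0.207%, 0.244% and 0.230% of the counts of a library in AC1.112 at 0, 24 and 72 h, 0.231%, 0.186% and 0.249% in AC1.203, 0.181%, 0.239% and 0.216% in AC1.230, 0.188%, 0.205% and 0.203% in AC1P, and 0.123%, 0.104% and 0.139% in 293F (means of 3 libraries). The share was lowest in 293F at each time, and the middle value dipped in AC1.203 and 293F where it climbed in the other 3 lines. SNHG29 alone had 1509537 of the 3505546 counts of the members over all libraries, so it weighs most in these shares.

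At 72 h, averaged over the 5 lines with equal weight, most host genes were more abundant than at 0 h. Of the 27 tested members 19 rose and 2 fell (edgeR, Benjamini-Hochberg adjusted p under 0.05), where 30.3% of all tested genes rose and 29.5% fell. The median log2 fold change of the members was 0.37, against 0.03 for all tested genes. Only SNHG12 passed 2-fold upwards, a size reached by 6.37% of all genes. In bulk libraries such as these, a change in the share of cells and a change in RNA per cell cannot be told apart.

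SNHG12 hosts SNORD99 and H/ACA snoRNAs of the SNORA16, SNORA44 and SNORA61 families (ENSG00000197989, chr1:28578538-28583132, minus strand). Over the 15 libraries per time it had 3.23 to 10.7 CPM (median 6.74) at 0 h, 6.22 to 20.99 CPM (median 8.97) at 24 h and 10.7 to 30.4 CPM (median 16.8) at 72 h. Within every line, all 3 libraries at 24 h and all 3 at 72 h lay above all 3 at 0 h, an order that 0.97% of all genes had. In AC1.112 the libraries had 9.17, 8.41 and 10.7 CPM at 0 h, 16.6, 16.2 and 20.99 CPM at 24 h and 26.6, 30.4 and 26.7 CPM at 72 h. In 293F they had 4.73, 4.92 and 4.94 CPM at 0 h, 7.84, 6.73 and 8.33 CPM at 24 h and 12.8, 15.9 and 16.8 CPM at 72 h. The log2 fold change at 72 h was 1.57 ± 0.07 (SE), or 2.96-fold, with an adjusted p of 1.97e-22. By line it was 1.57 in AC1.112, 1.56 in AC1.203, 1.60 in AC1.230, 1.45 in AC1P and 1.64 in 293F, a narrow range next to the starting levels, which spanned 3.90 ± 0.725 CPM in AC1.230 to 9.43 ± 1.17 CPM in AC1.112 (SD, n = 3 each).

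Other members rose by less. SNHG1, host of the SNORD22 and SNORD25 to SNORD31 group (ENSG00000255717, chr11:62851988-62855914, minus strand), had 104 to 169 CPM (median 130) at 72 h, against 58.5 to 122 CPM (median 74.0) at 0 h. Its log2 fold change was 0.74 ± 0.04 (SE, adjusted p 1.99e-16), or 1.67-fold. SNHG15, host of SNORA9, had 50.5 to 71.3 CPM (median 63.5) at 72 h, against 33.8 to 52.1 CPM (median 42.4) at 0 h, a log2 fold change of 0.56 ± 0.04 (adjusted p 4.49e-19). For both genes the ranges over all libraries overlapped between 72 h and 0 h. ZFAS1, a host of the SNORD12 family transcribed away from the ZNFX1 promoter (ENSG00000177410, chr20:49278178-49295738, plus strand), rose by 0.57 ± 0.04 on the log2 scale. SNHG7, host of SNORA17 (ENSG00000233016, chr9:136721366-136728184, minus strand), likewise rose by 0.57 ± 0.03. SNHG26, SNHG21 and SNHG9, hosts of SNORD93, SCARNA15 and SNORA78, rose by 0.79 ± 0.11, 0.72 ± 0.19 and 0.59 ± 0.09, the first 2 from very low counts. GAS5 rose by 0.28 ± 0.04, EPB41L4A-AS1, host of SNORA13, by 0.30 ± 0.04, SNHG19 by 0.37 ± 0.07, SNHG32 by 0.19 ± 0.02 and SNHG6 by 0.12 ± 0.03 on the same scale. Further members, singled out by their values, were SNHG17 (0.74 ± 0.03), SNHG20 (0.72 ± 0.06), SNHG10 (0.66 ± 0.08) and SNHG3 (0.65 ± 0.06). There were 10 members called higher at 72 h in each of the 5 lines: SNHG1, SNHG3, SNHG7, SNHG10, SNHG11, SNHG12, SNHG15, SNHG17, SNHG20 and ZFAS1. Of all genes 3.87% were called higher in each line. At 72 h 0 members were called higher in 1 line and lower in another, where 2.77% of all genes were.

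The 2 members that fell at 72 h were SNHG29 and SNHG16. SNHG29 had a log2 fold change of −0.37 ± 0.04 (adjusted p 3.26e-11). It had 932 ± 49.9 CPM at 72 h, against 1166 ± 43.4 CPM at 0 h in AC1.112, and 274 ± 11.3 CPM at 72 h, against 414 ± 23.2 CPM at 0 h in 293F. The sign was negative in all 5 lines, and AC1.230 alone did not pass the test (−0.15, adjusted p 0.152). SNHG16, host of the SNORD1 family (ENSG00000163597, chr17:76557766-76565348, plus strand), had a log2 fold change of −0.17 ± 0.02 (adjusted p 3.9e-09). With libraries scaled by their totals only, this became −0.01 and lost its call. The value in single lines was −0.20 in AC1.112, −0.17 in AC1.203 and −0.44 in 293F, with −0.09 in AC1.230 and 0.06 in AC1P not past the test. The 6 members without a call at 72 h were SNHG5, SNHG8, SNHG25, SNHG28, SNHG30 and SNHG31. With library totals only, SNHG5 (0.20) and SNHG8 (0.10) passed, and without 293F they passed in opposite directions (0.10 and −0.09).

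**Figure D1:**
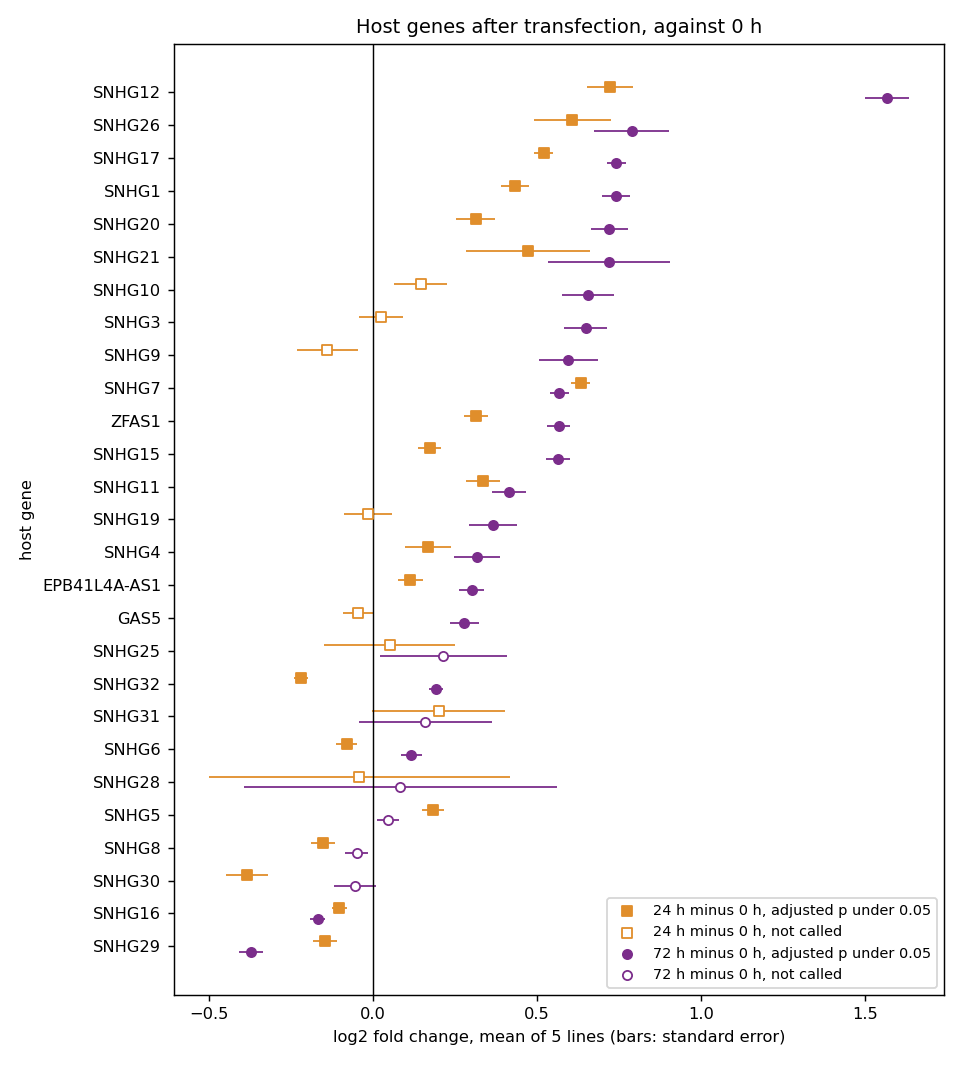
Log2 fold change ± SE (mean of the 5 lines) of the 27 tested members at 24 h and at 72 h, each against 0 h. Filled symbols passed an adjusted p of 0.05 in edgeR. SNHG12 reaches 0.72 at 24 h and 1.57 at 72 h, and SNHG29 and SNHG16 are the 2 members below 0 and past the test at 72 h.

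At 24 h the mean over the lines was more mixed: 13 of the 27 members rose and 6 fell, where 25.8% of all genes rose and 27.6% fell. The median log2 fold change was 0.15, against −0.01 for all genes, and 0 members passed 2-fold in either direction, where 2.46% of all genes rose and 1.31% fell by that much. The largest increases among the named genes were those of SNHG12 (0.72 ± 0.07, adjusted p 9.45e-12), SNHG7 (0.63 ± 0.03, adjusted p 2.29e-28) and SNHG26 (0.61 ± 0.12, adjusted p 8.44e-06). SNHG1 rose by 0.43 ± 0.04, ZFAS1 by 0.31 ± 0.04, SNHG5 by 0.18 ± 0.03 and SNHG15 by 0.17 ± 0.04 on the log2 scale. The 6 that fell were SNHG30 (−0.38), SNHG32 (−0.22), SNHG8 (−0.15), SNHG29 (−0.15), SNHG16 (−0.10) and SNHG6 (−0.08). Several of these means rested on few lines. The call of SNHG16 was lost without 293F (−0.0033), that of SNHG8 without AC1.203 (−0.07), and those of SNHG29 and SNHG6 without either AC1.203 (−0.05 and −0.01) or 293F (−0.03 and 0.0018). The call of EPB41L4A-AS1 (0.11 ± 0.04) was lost without AC1.112 (0.10) or AC1P (0.04) and its sign turned without AC1.230 (−0.03). That of SNHG21 (0.47 ± 0.19) was lost without AC1.112 (0.48), AC1.203 (0.33), AC1.230 (0.43) or AC1P (0.38), with libraries thinned to one depth (0.44), and without 10 single libraries, with a value as low as 0.39 without replicate 1 of AC1P at 24 h. That of SNHG6 was lost without 7 single libraries of AC1.203, AC1.230 and 293F, and with library totals only (−0.02). GAS5, without a call at −0.05 ± 0.05, had −0.14 without AC1.112, −0.18 without AC1.230 and 0.13 without 293F (adjusted p 0.0400), each past the test. SNHG12 and SNHG17 were the 2 members called higher at 24 h in each of the 5 lines, where 2.41% of all genes were. Another 5 members were called higher in 1 line and lower in another, against 8.16% of all genes.

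Between 24 h and 72 h, 16 members rose and 4 fell, where 29.3% of all genes rose and 28.7% fell, with a median log2 fold change of 0.22 for the members and 0.03 for all genes. Scaling by library totals only gave 19 rises and 1 fall, with the median of all genes at 0.12. SNHG12 rose further by 0.84 ± 0.06, SNHG9 by 0.73 ± 0.09, SNHG32 by 0.41 ± 0.02, SNHG15 by 0.39 ± 0.03 and GAS5 by 0.32 ± 0.05. SNHG29 fell by 0.22 and SNHG5 by 0.14. SNHG16 (−0.07) and SNHG7 (−0.07) also passed the test, but turned to 0.031 each with library totals only. SNHG16 also lost its call without AC1.230 (−0.03), and SNHG5 with library totals only (−0.04). SNHG7 turned as well without AC1.230 (0.083) or AC1P (0.037), and lost its call without any of 15 single libraries. It was not past the test either with the size factors of DESeq2 in edgeR (−0.06, adjusted p 0.0661), with DESeq2 itself (−0.06, adjusted p 0.0677), with a minimum count of 50 (−0.05) or with libraries thinned to one depth (−0.06).

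**Figure D2:**
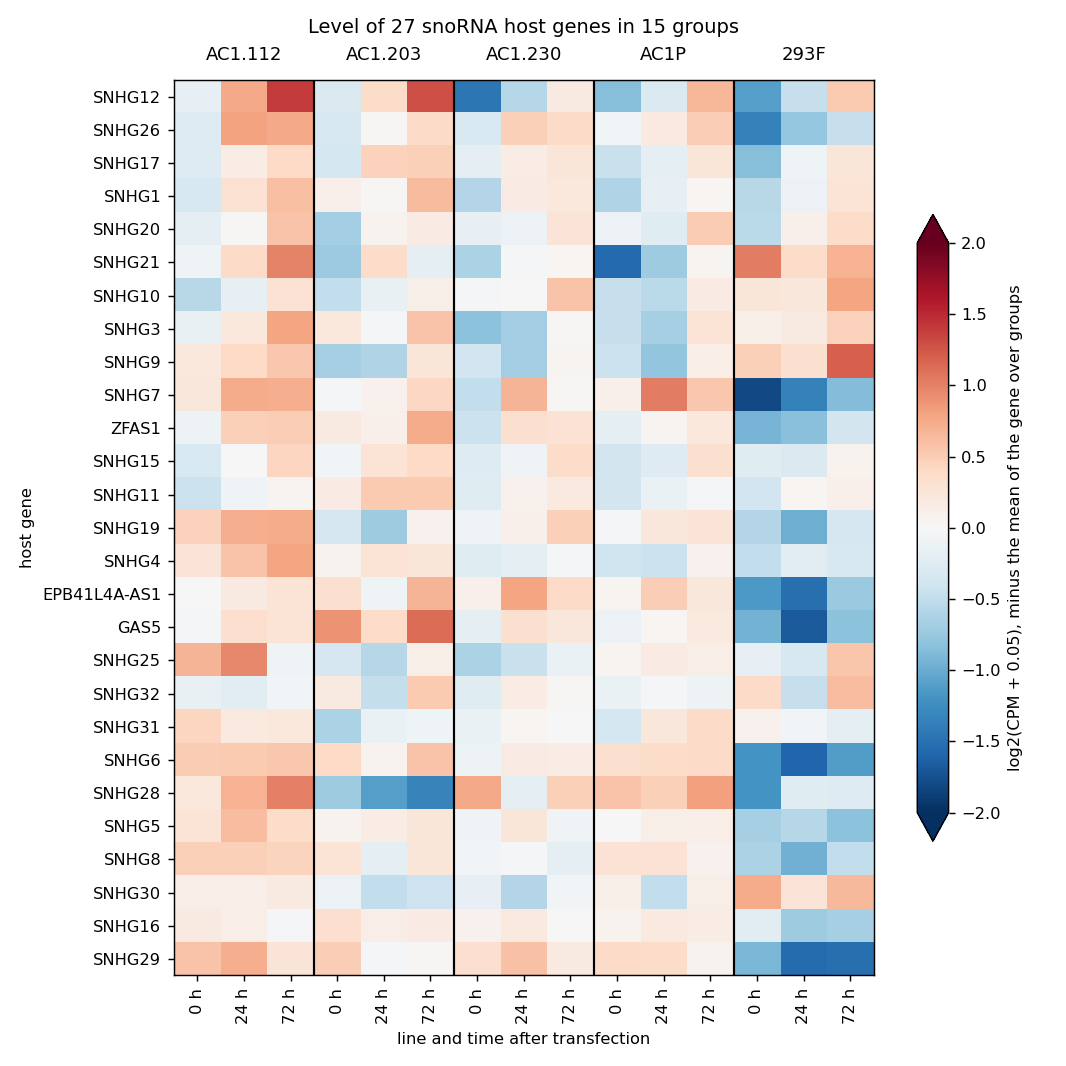
Log2(CPM + 0.05) of the 27 tested members in the 15 groups, each as the difference from that gene's mean over the groups, with genes ordered by their mean change at 72 h. Columns run by line and, within a line, by time (0, 24, 72 h). SNHG12 at the top gains at both later times in every line, and SNHG7 is lower in the 293F groups than in any AC1 group.

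The 24 h response differed between lines for 14 of the 27 members (edgeR F test for line by time, 4 degrees of freedom), where 43.9% of all genes differed, so the share among the members (14 of 27) is close to the background. At 72 h it differed for 6 members, where 23.2% of all genes differed, again near the background, and for 3 with 293F left out. In single lines at 24 h, 10 members rose and 0 fell in AC1.112 (10.8% and 12.6% of all genes), 6 rose and 8 fell in AC1.203 (21% and 20.8%), 13 rose and 1 fell in AC1.230 (12.1% and 14.7%), 6 rose and 1 fell in AC1P (9.85% and 9.5%), and 6 rose and 8 fell in 293F (19.8% and 22.1%). With library totals only, the 293F split was 9 and 7. The 7 calls in AC1P became 4 without replicate 3 of AC1P at 0 h. The 8 members that fell in AC1.203 are the 8 that fell in 293F: EPB41L4A-AS1, GAS5, SNHG6, SNHG8, SNHG16, SNHG29, SNHG30 and SNHG32. Over all genes 2707 fell in both, which is 61.1% of the 4427 that fell in AC1.203 and 57.6% of the 4703 that fell in 293F. Of the 10 members that rose in AC1.112 and the 13 that rose in AC1.230, 9 were shared, while over all genes 1063 were shared, 46.2% of 2301 in AC1.112 and 41.2% of 2578 in AC1.230.

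SNHG32 split between the lines at 24 h. In AC1.230 the means were 75.2 ± 1.98, 98.9 ± 6.15 and 90.2 ± 4.01 CPM (SD, n = 3 each) at 0, 24 and 72 h, with the highest value at 24 h. In AC1.203 they were 101 ± 7.19, 64.3 ± 0.199 and 128 ± 4.86 CPM, with the lowest value at 24 h. AC1.112 had 80.6 ± 0.352, 75.8 ± 0.719 and 85.9 ± 2.15 CPM and AC1P 81.7 ± 0.711, 86.8 ± 1.27 and 83.3 ± 0.885 CPM, a smaller spread over time. In 293F the libraries had 113, 120 and 117 CPM at 0 h, 63.0, 63.7 and 68.3 CPM at 24 h and 132, 139 and 139 CPM at 72 h, so the 24 h libraries lay below both other times without overlap. The log2 fold change at 24 h was −0.65 ± 0.05 in AC1.203 (adjusted p 3.79e-18), 0.40 ± 0.05 in AC1.230 (7.73e-10) and −0.84 ± 0.05 in 293F (1.66e-23). AC1.112 (−0.09) and AC1P (0.09) did not pass the test.

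GAS5 split in the same lines. In AC1.203, the line with the most GAS5 at 0 h, it had 312 ± 28.9 CPM at 24 h, against 448 ± 30.4 CPM at 0 h, and 525 ± 13.4 CPM at 72 h. In AC1.112 it had 306 ± 29.97 CPM at 24 h, against 238 ± 14.3 CPM at 0 h, and 291 ± 15.4 CPM at 72 h. AC1.230 and AC1P had 211 ± 15.9 and 222 ± 12.2 CPM at 0 h, 300.1 ± 8.67 and 248 ± 26.7 CPM at 24 h, and 285 ± 55.8 and 275 ± 22.2 CPM at 72 h. In 293F the libraries had 80.0, 74.5 and 71.6 CPM at 24 h, against a mean of 125 ± 12.8 CPM at 0 h, and 137 ± 6.55 CPM at 72 h, so 293F at 24 h held the least of all groups. The log2 fold changes at 24 h were 0.36 ± 0.10 in AC1.112 (adjusted p 0.00766), −0.53 ± 0.10 in AC1.203 (6.3e-05), 0.51 ± 0.10 in AC1.230 (0.000237) and −0.73 ± 0.10 in 293F (6.13e-07). AC1P at 0.15 (adjusted p 0.321) did not pass the test. SNHG29 fell by 0.52 ± 0.08 in AC1.203 and by 0.62 ± 0.08 in 293F, and rose by 0.25 ± 0.08 in AC1.230. Its means at 0, 24 and 72 h were 1106 ± 109, 774 ± 111 and 791 ± 30.7 CPM in AC1.203, 989 ± 18.7, 1175 ± 48.5 and 891 ± 135 CPM in AC1.230, 1016 ± 14.3, 1015 ± 48.3 and 824 ± 44.2 CPM in AC1P, and 414 ± 23.2, 269 ± 18.8 and 274 ± 11.3 CPM in 293F. EPB41L4A-AS1 and SNHG6 were likewise lower at 24 h in AC1.203 (−0.41 and −0.33) and 293F (−0.33 and −0.39) and higher in AC1.230 (0.69 and 0.26).

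SNHG7 rose at 24 h in 4 lines but by unequal amounts. It had 70.0 ± 5.24 CPM at 24 h, against 31.03 ± 0.934 CPM at 0 h in AC1.230, and 88.5 ± 3.02 CPM, against 46.5 ± 1.29 CPM in AC1P. In AC1.203 it had 46.1 ± 3.11 CPM at 24 h, against 42.5 ± 3.31 CPM at 0 h. The log2 fold changes were 1.17 ± 0.06 in AC1.230 (adjusted p 3.55e-23), 0.93 ± 0.06 in AC1P (1.82e-18), 0.50 ± 0.06 in AC1.112 and 0.45 ± 0.07 in 293F, and 0.11 in AC1.203 (adjusted p 0.154). At 72 h its level in AC1.230 and AC1P was below that at 24 h, 44.4 ± 0.621 and 63.2 ± 0.815 CPM, while in 293F it was higher again, 23.9 ± 1.73 CPM, against 17.02 ± 0.456 CPM at 24 h. SNHG1 and ZFAS1 had the smallest 24 h values in AC1.203 (−0.08 each, not past the test) and the largest in AC1.230 (0.75 and 0.73).

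The other members with values by line were as follows, always as mean CPM ± SD of 3 libraries at 0, 24 and 72 h. EPB41L4A-AS1 (ENSG00000224032, chr5:112160526-112164276, plus strand) had 23.9 ± 0.680, 27.3 ± 2.45 and 29.2 ± 1.89 CPM in AC1.112, 30.05 ± 3.54, 22.6 ± 0.867 and 38.5 ± 0.889 CPM in AC1.203, and 25.8 ± 0.897, 41.5 ± 2.73 and 31.5 ± 3.03 CPM in AC1.230. Its AC1P means were 25 ± 1.99, 33.8 ± 2.54 and 28.02 ± 0.913 CPM and in 293F 10.8 ± 0.489, 8.59 ± 1.81 and 14.3 ± 0.424 CPM. Its peak was thus at 24 h in AC1.230 and AC1P and its low point at 24 h in AC1.203 and 293F. ZFAS1 had 19.7 ± 0.989, 29.5 ± 1.70 and 29.8 ± 2.25 CPM in AC1.112, 23.9 ± 1.63, 22.7 ± 2.03 and 35.4 ± 1.42 CPM in AC1.203, and 15.8 ± 1.09, 26.3 ± 1.109 and 25.9 ± 2.87 CPM in AC1.230. The AC1P libraries had 18.7 ± 0.576, 22.04 ± 1.92 and 24.5 ± 2.40 CPM and in 293F 11.1 ± 0.871, 11.8 ± 0.334 and 16.5 ± 0.806 CPM. In AC1.112 and AC1.230 ZFAS1 was at its 72 h level by 24 h, and in AC1.203 and 293F the 24 h mean was near that at 0 h. SNHG1 had 83.2 ± 10.2, 128 ± 14.3 and 157 ± 5.78 CPM in AC1.112, 111 ± 11.05, 105 ± 7.54 and 161 ± 8.14 CPM in AC1.203, and 69.3 ± 9.61, 117 ± 5.18 and 121 ± 10.98 CPM in AC1.230. AC1P had 68.2 ± 6.92, 92.2 ± 5.52 and 106 ± 4.28 CPM and in 293F 70.7 ± 2.93, 95.7 ± 4.50 and 125 ± 6.55 CPM. AC1.203 was again the line with no step by 24 h.

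SNHG16 had 221 ± 9.99, 214 ± 4.67 and 192 ± 2.79 CPM in AC1.112, 246 ± 15.8, 213 ± 5.33 and 219 ± 5.56 CPM in AC1.203, and 206 ± 7.80, 223 ± 24.2 and 193 ± 6.47 CPM in AC1.230. In AC1P it had 205 ± 4.46, 222 ± 6.05 and 214 ± 6.58 CPM and in 293F 166 ± 2.23, 118 ± 5.74 and 122 ± 6.35 CPM, so the 293F libraries after transfection held the least. SNHG6 had 64.4 ± 1.75, 65.3 ± 0.360 and 66.0 ± 2.26 CPM in AC1.112, 42.5 ± 1.87, 51.0 ± 2.17 and 50.5 ± 6.43 CPM in AC1.230 and 57.0 ± 2.06, 58.6 ± 1.25 and 59.2 ± 1.03 CPM in AC1P. In AC1.203 and 293F it had 60.0 ± 7.83, 47.9 ± 6.98 and 67.7 ± 3.31 CPM, and 19.9 ± 1.38, 15.1 ± 0.409 and 20.97 ± 0.340 CPM, a dip at 24 h in both. SNHG8 likewise had 33.9 ± 2.91, 24.6 ± 1.35 and 33.2 ± 1.25 CPM in AC1.203, and in 293F 17.97 ± 0.891, 14.4 ± 2.0 and 19.8 ± 1.19 CPM. In AC1.112 SNHG8 had 39.04 ± 3.50, 39.01 ± 1.88 and 38.3 ± 2.18 CPM, in AC1.230 27.02 ± 1.81, 27.6 ± 1.06 and 24.8 ± 3.07 CPM and in AC1P 34.1 ± 1.53, 34.1 ± 1.48 and 29.6 ± 1.34 CPM. SNHG5, host of the SNORD50 pair, did not share the dip. It had 151 ± 3.63, 189 ± 3.78 and 159.6 ± 8.59 CPM in AC1.112, 131 ± 12.8, 138 ± 15.2 and 147 ± 4.61 CPM in AC1.203, and 118 ± 3.06, 146 ± 8.36 and 119 ± 18.2 CPM in AC1.230. In AC1P it had 125 ± 4.67, 134 ± 7.34 and 136 ± 6.12 CPM and in 293F 78.2 ± 3.90, 83.9 ± 3.70 and 70.4 ± 4.23 CPM. At 24 h SNHG5 rose in AC1.112 and AC1.230 and did not pass the test in the other 3 lines.

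SNHG15 had 40.7 ± 3.74, 49.6 ± 3.14 and 67.8 ± 3.50 CPM in AC1.112, 48.4 ± 3.98, 60.5 ± 3.97 and 65.7 ± 1.98 CPM in AC1.203, and 41.7 ± 2.12, 47.9 ± 6.11 and 64.9 ± 5.12 CPM in AC1.230. In AC1P it had 38.8 ± 5.30, 41.8 ± 2.03 and 62.3 ± 3.73 CPM and in 293F 42.2 ± 1.42, 41.01 ± 1.06 and 52.9 ± 3.54 CPM. It differs from GAS5 and SNHG32 in that AC1.203 had a called increase at 24 h (0.32, adjusted p 0.000707). SNHG19, host of SNORD60, had 2.05 ± 0.131 CPM in 293F at 24 h as its lowest mean and 6.87 ± 0.631 CPM in AC1.112 at 72 h as its highest. SNHG26 had means from 0.542 ± 0.114 CPM in 293F at 0 h to 2.53 ± 0.119 and 2.53 ± 0.670 CPM in AC1.112 at 24 and 72 h, and SNHG9 from 1.61 ± 0.304 CPM in AC1P at 24 h to 6.46 ± 0.597 CPM in 293F at 72 h. SNHG21 had 0.196 ± 0.140 CPM in AC1P at 0 h as its lowest mean and 1.26 ± 0.155 CPM in 293F at 0 h as its highest. In 293F SNHG21 had 0.785 ± 0.162 and 1.02 ± 0.278 CPM at 24 and 72 h, with log2 fold changes of −0.68 and −0.31 that did not pass the test. In AC1P it had 0.360 ± 0.157 and 0.629 ± 0.175 CPM at these times, and its 72 h log2 fold change of 1.61 ± 0.47 passed (adjusted p 0.00696).

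In single lines at 72 h, 15 members rose and 2 fell in AC1.112 (14.2% and 18.4% of all genes), 15 and 2 in AC1.203 (13.9% and 17%), 16 and 0 in AC1.230 (17% and 22.1%), 14 and 2 in AC1P (12.7% and 13.2%), and 14 and 2 in 293F (18.3% and 21.9%). Library totals only gave 19 and 0 in AC1.112. The 17 calls in AC1.203 became 11 without replicate 3 of AC1.203 at 72 h, and the 16 in AC1P became 10 without replicate 3 of AC1P at 0 h. The sign was positive in all 5 lines for 18 members and negative in all 5 for SNHG29 alone, where 22.9% of all genes were positive and 22.1% negative in every line. At 24 h it was positive in all 5 lines for 6 members and negative in all 5 for 0, where 15.6% of all genes were positive and 14.7% negative in every line.

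At 0 h more members were higher than lower in each AC1 line when set against 293F. In AC1.112, 17 members were higher and 4 lower than in 293F (30.4% and 32.2% of all genes), with a median log2 difference of 0.75. In AC1.203 there were 16 higher and 5 lower (28.2% and 29.6%; median 0.57), in AC1.230 14 and 5 (30.5% and 31.6%; median 0.32) and in AC1P 14 and 6 (30% and 32.4%; median 0.36). The medians of all genes lay between −0.04 and −0.02. The 4 comparisons share the 3 libraries of 293F. Scaling by library totals only put the median of all genes at −0.20 to −0.25. It gave 15 higher and 7 lower in AC1.112, 15 and 5 in AC1.203, 12 and 8 in AC1.230 and 13 and 8 in AC1P. At least 2-fold higher were 8 members in AC1.112, 7 in AC1.203 and 6 each in AC1.230 and AC1P (8.5%, 7.27%, 8.24% and 8.51% of all genes). Taking the libraries one by one, the 3 of the AC1 line lay above the 3 of 293F for 16 members in AC1.112, 17 in AC1.203, 14 in AC1.230 and 14 in AC1P, below them for 5, 5, 6 and 6, and overlapped for the rest. Of all genes 31.5%, 28.7%, 32.6% and 31.8% lay above 293F in this way in AC1.112, AC1.203, AC1.230 and AC1P, and 34.2%, 31.6%, 34.1% and 35.5% lay below it. The 5 lines differed at 0 h for 26 of the 27 members, where 80.8% of all genes differed.

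SNHG7 had 29.97 to 55.7 CPM (median 45.7) in the 12 AC1 libraries at 0 h, against 11.4 to 12.9 CPM in the 3 libraries of 293F. The log2 difference was 2.05 ± 0.07 in AC1.112, 1.77 in AC1.203, 1.32 in AC1.230 and 1.90 in AC1P, or 4.13-fold, 3.42-fold, 2.50-fold and 3.74-fold. The ranges did not overlap. SNHG29 had 967 to 1213 CPM (median 1021) in the AC1 lines, against 392 to 438 CPM in 293F, which is 2.39-fold to 2.82-fold higher over the 4 lines. SNHG6, host of SNORD87, had 41.1 to 68.7 CPM (median 57.3), against 18.3 to 21.04 CPM, with log2 differences of 1.10 to 1.70. EPB41L4A-AS1 had 22.7 to 33.8 CPM (median 25.9), against 10.3 to 11.3 CPM, with log2 differences of 1.15 to 1.48. None of these 4 ranges met that of 293F.

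GAS5 had 197 to 481 CPM (median 232) in the AC1 lines, against 115 to 139 CPM in 293F. Its log2 difference was 1.84 in AC1.203 and 0.76 to 0.93 in the other 3 AC1 lines, so AC1.203 stood above them. SNHG8, host of SNORA24, had 25.5 to 42.5 CPM, against 17.1 to 18.8 CPM, SNHG5 had 115 to 155 CPM, against 75.6 to 82.7 CPM, ZFAS1 had 14.6 to 25.7 CPM, against 10.5 to 12.1 CPM, and SNHG16 had 201 to 262 CPM, against 164 to 168 CPM. All these ranges were separate. SNHG26 was higher in all 4 AC1 lines by 1.12 to 1.37 on the log2 scale. SNHG1 (58.5 to 122 CPM, against 68.2 to 74.0 CPM) and SNHG15 (33.8 to 52.1 CPM, against 40.7 to 43.5 CPM) overlapped 293F. The call of SNHG1 in AC1.112 was lost with library totals only (0.02), with no filter (0.21) or without some single libraries. That of SNHG15 in AC1.203 was lost with library totals only (0.01), with DESeq2 (0.17) or without some single libraries. SNHG12 was higher in AC1.112 (0.94) and AC1.203 (0.85) and did not pass the test in AC1.230 (−0.31) or AC1P (0.32). It passed in AC1.230 without replicate 2 of that line (−0.46), with library totals only (−0.49), with no filter on low counts (−0.32) or with DESeq2 (−0.35). In AC1P it passed without replicate 3 of that line (0.53) or replicate 2 or 3 of AC1.203 (0.35 each), with no filter (0.33) or with thinned libraries (0.44). SNHG28 was called higher in AC1.112, AC1.230 and AC1P on very few reads: 8, 14 and 1 counts in AC1.112, 9, 5 and 17 in AC1.230 and 5, 8 and 14 in AC1P, against 0, 1 and 3 in 293F. These 3 calls were each lost without 1 library, replicate 2 of AC1.112 (1.80), replicate 3 of AC1.230 (2.28) or replicate 3 of AC1P (2.02), and those of AC1.112 and AC1P also without replicate 1 of 293F (2.01 and 2.21). Without replicate 2 of 293F that of AC1.112 was lost as well (2.34).

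Fewer members were lower in the AC1 lines than in 293F. SNHG32 had 73.1 to 109 CPM (median 81.0) in the AC1 lines, against 113 to 120 CPM in 293F, with log2 differences of −0.53 in AC1.112, −0.21 in AC1.203, −0.63 in AC1.230 and −0.51 in AC1P. SNHG21 had 0.065 to 0.85 CPM (median 0.37), against 1.12 to 1.43 CPM, with log2 differences of −1.08 to −2.64. The call in AC1.112 was lost without replicate 2 of that line (−0.84). SNHG9 was lower in AC1.203 (−1.14), AC1.230 (−0.83) and AC1P (−0.90), while AC1.112 (−0.25) did not pass the test except with library totals only (−0.46). SNHG30, singled out by its values, was lower in all 4 lines (−0.60 to −0.88).

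**Figure D3:**
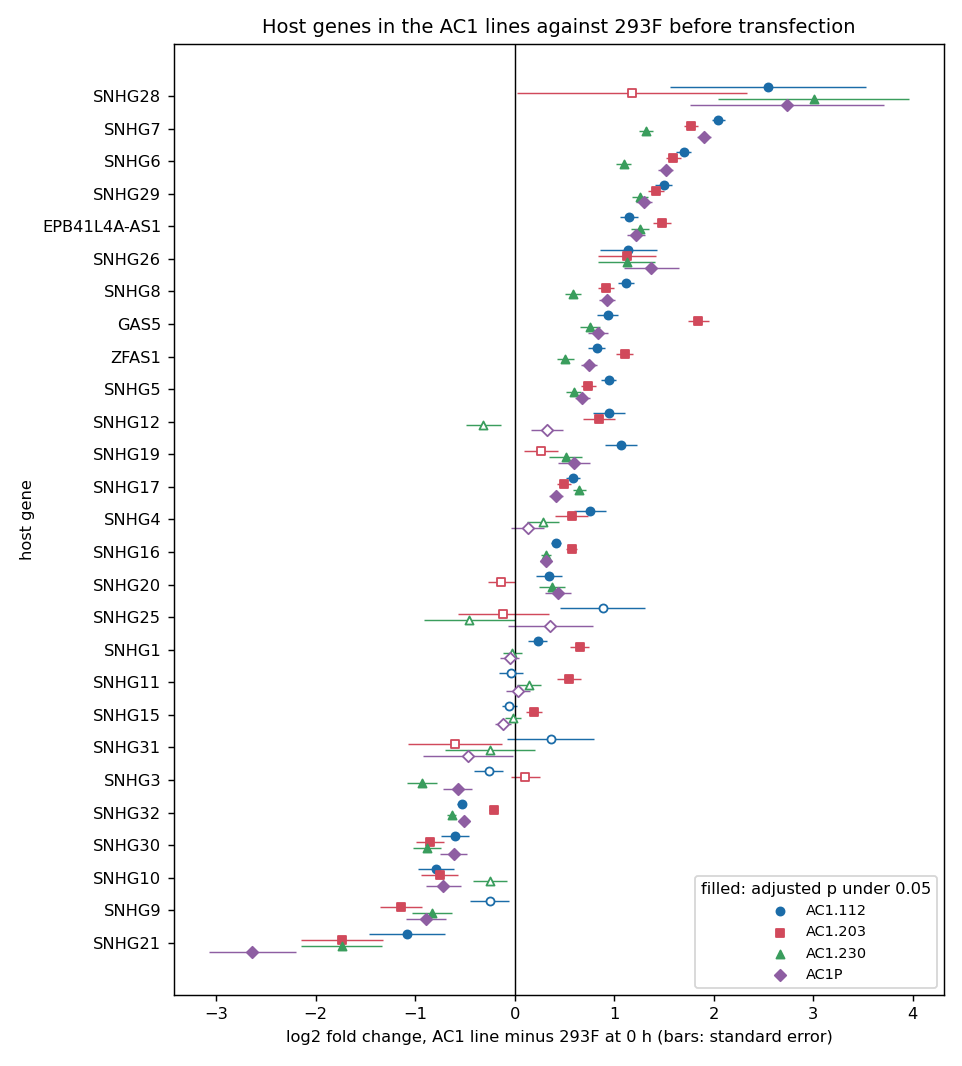
Log2 difference ± SE of each AC1 line from 293F at 0 h for the 27 tested members. Filled symbols passed an adjusted p of 0.05 in edgeR, and the 4 lines share the 293F libraries. SNHG7, SNHG6, SNHG29, EPB41L4A-AS1, SNHG26 and SNHG28 lie above 1 in all 4 lines (SNHG28 not past the test in AC1.203), and SNHG21 lies below −1 in all 4.

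Sorted by the snoRNAs they host in RefSeq, the 11 tested members with C/D box snoRNAs alone had 6 rises and 2 falls at 72 h (median log2 fold change 0.19), and the 10 with H/ACA box snoRNAs alone had 8 rises and 0 falls (median 0.49). At 24 h the counts were 4 and 5 for C/D hosts (median −0.02) and 6 and 1 for H/ACA hosts (median 0.17). Whether the classes differ was not tested. Over all tested genes, 30.3% rose and 29.5% fell at 72 h, and 25.8% rose and 27.6% fell at 24 h. Sorted by start site, 5 of the 6 TOP-like members rose at 72 h and 0 fell (median 0.34), and of the 17 matched members without such a start 11 rose and 2 fell (median 0.41).

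The hosted snoRNA genes themselves were barely counted. GENCODE 29 lists 143 inside members, 84 of them in SNHG14 and 0 in GAS5, where RefSeq gives 11. Some loci are listed under separate IDs (SNORA16A and SNORA17B). Of the 143, 19 had any count and 8 were tested, with 7108 counts in all libraries together, against 3505546 for the members. Those that overlap an exon of their host had 0 counts, except SNORD30 and SNORD7. SNORD99, inside SNHG12, rose by 0.94 ± 0.28 on the log2 scale at 24 h (adjusted p 0.00376) and by 1.05 ± 0.29 at 72 h (adjusted p 0.00119). SCARNA13, inside SNHG10, rose by 0.72 ± 0.29 at 72 h, SNORD104, inside SNHG25, by 0.54 ± 0.16, and SNORA71A and SNORA71B, inside SNHG17, by 0.81 ± 0.27 and 0.46 ± 0.20. SNORA73B, inside SNHG3, fell by 0.73 ± 0.29 at 24 h (adjusted p 0.0351). The source of the reads over these genes was not tested, and mature snoRNAs were not measured.

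Many host genes overlap another gene or share a promoter with it, and the strand setting of the counting is not given in the sources used here, so counts of overlapping genes are uncertain. There were 16 pairs of a member called at 72 h and a tested neighbour on the opposite strand (overlapping or within 1000 bases). The neighbour was called in the same direction in 3, in the opposite direction in 7 and not called in 6. Over all tested genes, 30.3% rose and 29.5% fell at 72 h. The split was not the same elsewhere: at 24 h, 5 of 12 such pairs went the same way and 2 the opposite way. Against 293F at 0 h these counts were 8 and 4 of 17 in AC1.112 and 7 and 3 of 16 in AC1.203. In AC1.230 they were 5 and 6 of 14, and in AC1P 4 and 6 of 15. TRNAU1AP, on the opposite strand from SNHG12, had −0.26, and DIPK1B, opposite SNHG7, had −0.20 at 72 h. RCC1, which overlaps SNHG3 on the same strand and so is not among these pairs, had −0.09. ZNFX1, an antiviral RNA sensor opposite ZFAS1, rose with it, by 0.21 at 24 h and 0.27 at 72 h. SLC3A2, a subunit of amino acid transporters whose start lies within 1000 bases of SNHG1 on the opposite strand, rose by 0.75 ± 0.03 at 24 h and 0.51 ± 0.03 at 72 h. At 0 h LRRC75A, opposite SNHG29, was lower in the AC1 lines than in 293F, with log2 differences of −1.16, −1.76, −1.26 and −1.30 in AC1.112, AC1.203, AC1.230 and AC1P, while SNHG29 was higher.

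The related lists give the setting, with TMM scaling throughout. Library totals only put the 72 h median of all tested genes at 0.18, against 0.03 with TMM. Values of the lists under that scaling are not given here, so the sizes and counts below hold for TMM. Of 38 protein-coding genes that host snoRNAs, 5 rose and 21 fell at 24 h (median −0.11), and 4 rose and 31 fell at 72 h (median −0.24). The 25 ribosomal protein genes among them had 0 rises and 24 falls at 72 h (median −0.27), such as RPSA at −0.50 ± 0.03. The other 13 had 4 rises and 7 falls, with TAF1D, a subunit of the RNA polymerase I factor SL1, at 0.52 ± 0.03 and EIF4A1, a translation initiation helicase, at 0.49 ± 0.11. Against 293F at 0 h, 32, 32, 34 and 32 of the 38 were higher in AC1.112, AC1.203, AC1.230 and AC1P, and 2, 3, 1 and 3 were lower, with medians of 0.97, 0.78, 0.67 and 0.91. Protein-coding hosts and the SNHG members thus had medians of opposite sign at 72 h and medians of the same sign against 293F.

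Of 28 genes for snoRNP core and assembly proteins, 11 rose and 7 fell at 24 h (median 0.02), and 0 rose and 22 fell at 72 h (median −0.15). NHP2 and NOP10, core H/ACA proteins, had −0.42 ± 0.03 and −0.36 at 72 h, and FBL, the fibrillarin gene, named for its role, had −0.23. Of 25 factors of nonsense-mediated decay, 14 rose and 5 fell at 24 h (median 0.11), with SMG9 at 0.31 and SMG5 at 0.29, and 10 rose and 12 fell at 72 h (median −0.02). UPF1, the central helicase of the pathway and named for that role, had 0.21 at 24 h and 0.14 at 72 h, both past the test. Of 14 other long noncoding RNAs, 2 rose and 5 fell at 24 h (median −0.02), and 7 rose and 4 fell at 72 h (median 0.10). Among these MIAT (1.65 ± 0.23) and NEAT1, the scaffold of paraspeckles (0.85 ± 0.09), had the largest values at 72 h.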

How the data were processed

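The deposited files hold raw counts, in whole numbers, for each Ensembl gene ID. HISAT2, Subread and featureCounts made them on GRCh38, per the submitters' processing notes. Their versions, the strand setting and the annotation are not stated in these sources. Per the labels' protocols, libraries were poly(A)-selected and the kit marks strand. Symbols came from a table of gene IDs, coordinates (1-based, GRCh38) from GENCODE release 29, and promoter sequences and hosted snoRNAs from RefSeq.

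The counts were analysed in R 4.3.3 with edgeR 4.0.16 (quasi-likelihood test, robust), with all 45 libraries and 15 groups in a common fit. Genes were kept by filterByExpr (minimum count 10, minimum total 15), scaled by TMM, and called where the p adjusted by Benjamini-Hochberg over all 21242 genes was under 0.05. The same steps were tested on simulated data. CPM are TMM-scaled, with SD over 3 libraries. Genes named with values are GAS5, ZFAS1, EPB41L4A-AS1, the members highest in CPM and the members called at 2-fold or more in a main comparison, and others where the text says so. Members and lists were chosen with earlier results of these data known. The replicate numbers did not pair the libraries, so no pairing was used. Alternatives were other size factors, library totals only, other filters, a replicate block, thinning to the smallest total, DESeq2 1.42.0, and leaving out libraries or lines.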

Additional observations from a re-analysis of the deposited data

Results flagged for a closer look

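The 24 h response differed between the 5 lines (F test of the interaction in edgeR, Benjamini-Hochberg adjusted p over all genes) for 14 members. The adjusted p was 3.56e-25 for SNHG32, 3.45e-15 for SNHG7, 5.68e-12 for EPB41L4A-AS1, 2.16e-10 for SNHG16 and 9.49e-09 for GAS5. It was 2.49e-08 for ZFAS1, 2.62e-08 for SNHG29, 1.25e-07 for SNHG17, 9.25e-07 for SNHG6 and 5.75e-05 for SNHG1. It was 0.000137 for SNHG20, 0.000139 for SNHG8, 0.0139 for SNHG19 and 0.0341 for SNHG15. The log2 fold changes of SNHG17 and SNHG20 at 24 h were larger in AC1.203 (0.82 and 0.74) and 293F (0.76 and 0.65) than in AC1.112 (0.41 and 0.25), AC1.230 (0.36 and 0.05) and AC1P (0.25 and −0.12). SNHG32, GAS5 and SNHG29 in AC1.203 and 293F had the opposite sign.

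At 72 h the response differed between lines for 6 members, with an adjusted p of 4.38e-06 for SNHG17, 8.79e-06 for SNHG16, 0.000102 for SNHG7, 0.000777 for SNHG32, 0.0149 for SNHG15 and 0.0274 for SNHG29. SNHG7 and SNHG17 had their largest 72 h log2 fold changes in 293F (0.95 and 1.09), and SNHG15 had its smallest there (0.32).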

How the results depend on the processing

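Of 20 counts of called members, those that left the range of 1.5 times the reported value did so as follows. The count of members whose 72 h response differed between lines was 3 without 293F, against 6. With single libraries left out, the calls in AC1P ranged from 4 to 7 at 24 h and from 10 to 16 at 72 h, and those in AC1.203 from 11 to 19 at 72 h. The other counts stayed within 1.5 times. Of 126 log2 fold changes of 18 named members, 106 were called and 87 of these kept their call and sign under every setting run. The sign turned in 8 fits of 6 of the values. These were GAS5 (0.13) and SNHG6 (0.0018) at 24 h without 293F, EPB41L4A-AS1 at 24 h without AC1.230 (−0.029), and SNHG7 between 24 and 72 h without AC1.230 (0.083), without AC1P (0.037) and with library totals only (0.031). With library totals only, SNHG16 between 24 and 72 h (0.031) and SNHG8 at 72 h (0.10) turned too. The cause was not tested. Library totals only put the median of all genes at 0.18 at 72 h.

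A fit with the replicate number as a block gave 19 calls at 24 h and 21 at 72 h, and changed no call of a named member. Libraries with the same number in a line did not deviate together (r from −0.067 to 0.052 over 45 pairs, 0 above 0.1). Depth limits SNHG21, SNHG25 (9 to 85 counts per library), SNHG26, SNHG28 and SNHG31. Leaving out whole lines was chosen after the data were seen for the named members' values.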
